A study of Mus musculus with 17 samples.

Results

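Factor D and the alternative complement pathway were followed in mouse fat and in fat grown from implanted cells. The 9 genes were taken by symbol from a deposited table of 54658 genes: Cfd, Cfb, C3, Cfp, Cfi, Hc, C3ar1, C5ar1 and Vsig4. Each symbol matched 1 row. RNA was sequenced in 16 libraries, 2 for each of 8 group codes. The series title links leptin and factor D of fat to osteoarthritis severity and pain.

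KO implants (MKM, MKF) and WT implants (MWM, MWF) grew from mouse embryonic fibroblasts (MEF) of leptin knockout or wildtype pups. The cells were injected under the skin over the sternum of LD mice aged 3 to 5 weeks and formed adipose-like tissue. The labels do not spell out LD; in the published model of that name the host is lipodystrophic and largely lacks fat of its own. All 4 implant groups had surgery that destabilizes the medial meniscus of 1 knee at 16 weeks, and animals were killed at 28 weeks. The final letter stands for groups described as male (MKM, MWM) or female (MKF, MWF), although the design text calls the hosts male. Endogenous visceral fat came from EVM (surgery), EVFN (no surgery) and EVFY (visceral by its genotype label, code not spelled out), and endogenous subcutaneous fat from ESM (male, surgery). The genotype and strain of the mice that gave endogenous fat are not given beyond the depot. Whether both libraries with 1 code stem from different animals is not stated, so every p-value here reflects spread among libraries that could be technical.

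The alternative pathway is the branch of complement that turns over continuously without antibody. Hydrolysed or surface-bound C3 binds factor B, factor D cuts the bound factor B, and the complex becomes an enzyme that cuts more C3; properdin stabilises it and factor I switches it off. The same enzyme, with a further C3b, cuts C5, and the small fragments C3a and C5a act on receptors of myeloid cells. Factor D, first described in fat as adipsin, is made mainly by adipocytes, whereas most circulating complement proteins come from the liver.

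Levels are given in CPM, the reads of a gene scaled to a library total of 1000000. Library totals ran from 16444965 to 25805502 reads. The labels call the tissue ganglia, but the mean over 10 sensory neuron genes was 0.74 to 5.24 CPM in the 14 libraries other than those labelled MKM1 and EVFN1, whereas the mean over 8 adipocyte genes was 986 to 3040 CPM. The libraries labelled MKM1 and EVFN1 stood apart from their groups. Across genes, log2 levels of the library labelled MKM1 correlated with EVFY1 at r = 0.989 and with MKM2 at r = 0.891; those of the library labelled EVFN1 correlated with MKF1 at r = 0.984 and with EVFN2 at r = 0.906. Upk3b, a gene of mesothelium, which covers visceral fat, had 200.4 CPM in the library labelled MKM1 and 0 CPM in MKM2, and 0.0580 CPM in the library labelled EVFN1 and 148 CPM in EVFN2. Both libraries thus went against their labels, and whether the 2 carry each other's labels was not tested. Both are given singly here and enter no group mean or test. The targeted gene does not check the labels: Lep had 1336, 1644 and 1726 CPM in the KO implants MKM2, MKF1 and MKF2, against 1888, 2675, 806 and 1019 CPM in the WT implants MWM1, MWM2, MWF1 and MWF2, and 1045 CPM in the library labelled MKM1.

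In KO implants Cfd was lower than in WT implants, and the receptor genes C3ar1, C5ar1 and Vsig4 were higher. In WT implants Cfd was already below its level in endogenous fat, while Cfi and Hc, genes of liver-made proteins, were higher than in fat. C3 and Cfp passed the threshold in none of the 9 comparisons. The test was limma on log2(CPM + 0.5) with p-values adjusted by the Benjamini-Hochberg method over 17871 genes, and a gene is said to rise or fall where its adjusted p was under 0.05. All 9 genes reached the filter of 1 CPM in 2 libraries, Hc only through implants. The rise of Hc against fat was thus largely set by the filter.

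Between KO and WT implants 1 of the 9 genes fell, where 4.1% of all tested genes fell, and 3 rose, where 6.67% of all genes rose. The median log2 fold change was -0.06 over the 9 genes and -0.06 over all genes. Between the female groups (MKF against MWF) the same 4 genes were called, where 6.01% of genes rose and 10.4% fell. This balance over all genes depended on the scaling: 1074 genes rose and 1866 fell, but median-of-ratios scaling gave 1685 risers and 1425 fallers, and edgeR 1371 risers and 1097 fallers. Over both sexes 1192 rose and 732 fell, and 1282 and 470 with edgeR. Between the male groups, with MKM2 as the lone KO library, Cfd was called lower, where 0.0671% of genes fell, and C3ar1 and C5ar1 higher, where 1.34% rose. The test of the difference between the male and female effects called 0 of the 9 with limma, where 0.548% of genes were called; 2 of the 9, C5ar1 and Hc, had an unadjusted p under 0.05, edgeR called 0 and DESeq2 called 1, C5ar1.

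Markers of other tissues also moved between the implants, where 4.1% of all tested genes fell and 6.67% rose. All 4 lung genes, which encode surfactant proteins and a club cell protein, fell in KO against WT implants (median log2 fold change -3.48). The mean over the list was 5.52, 5.10 and 2.05 CPM in MKM2, MKF1 and MKF2, against 28.1 to 117 CPM in WT implants. All 4 reached the filter only through implants. Sftpd reached 1 CPM in MKM2 alone among the KO implants, so the filter, passed mainly through WT implants, in part set its fall. Of 8 tested sensory neuron genes 5 fell and 0 rose, and the mean was 1.02 to 2.89 CPM in KO implants and 3.92 to 5.24 CPM in WT implants. Scn10a, one of those that fell, reached 1 CPM in MKM2 alone among the KO implants. Glial genes (6, of satellite cells and Schwann cells) had 3 that fell and 0 that rose, with a mean of 16.9 to 21.7 CPM in KO implants and 29.2 to 41.7 CPM in WT implants. In the female groups 4 lung, 5 neuron and 3 glial genes fell, where 10.4% of genes fell. Sftpd and Scn10a, counted among these, stayed below 1 CPM in MKF1 and MKF2, so the filter in part set their fall. In the male groups 1 lung, 0 neuron and 0 glial genes fell, where 0.0671% fell. The 4 lymphocyte genes had a mean of 4.33, 19.9 and 0.955 CPM in MKM2, MKF1 and MKF2, against 1.35 and 5.04 CPM in MWM1 and MWM2 and 121 and 84.1 CPM in MWF1 and MWF2; 0 of them passed over both sexes with limma, 2 had an unadjusted p under 0.05, and 3 fell in the female groups. Of 6 mesothelium genes 1 fell, and of 6 fibroblast genes 1 rose. The part of these tissues in the differences of the 9 genes between the implants was not tested.

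In WT implants against visceral fat 3 of the 9 rose, where 15.9% of genes rose, and 1 fell, where 6.5% fell (2849 and 1162 genes; edgeR gave 2318 and 1526, and median-of-ratios scaling 2428 and 1883). Against subcutaneous fat 2 rose in WT implants, where 8.57% of genes rose, and 1 fell, where 1.82% fell (1532 and 326 genes; edgeR gave 766 and 416, and median-of-ratios scaling 1394 and 587). In KO implants 5 of the 9 rose against visceral fat, where 16.4% of genes rose, and 1 fell, where 8.25% fell. Against subcutaneous fat 5 rose in KO implants, where 13.4% rose, and 1 fell, where 4.9% fell (2391 and 875 genes, but 1904 and 1126 with edgeR). Visceral against subcutaneous fat gave 0 of the 9 with limma, where 1.2% of genes were called, 0 at an unadjusted p under 0.05, and 0 with edgeR or DESeq2. Hc is counted among the risers in each comparison of implants with fat, where its rise was largely set by the filter. These comparisons share libraries, so their calls are not independent of each other. Visceral fat pooled EVM (surgery) with EVFN2 (no surgery) and EVFY, whereas all implants and ESM had surgery. Subcutaneous fat came from the male ESM alone. The fit held no term for surgery or sex, so tissue is mixed with both in the comparisons with fat and between the depots.

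**Figure D1:**
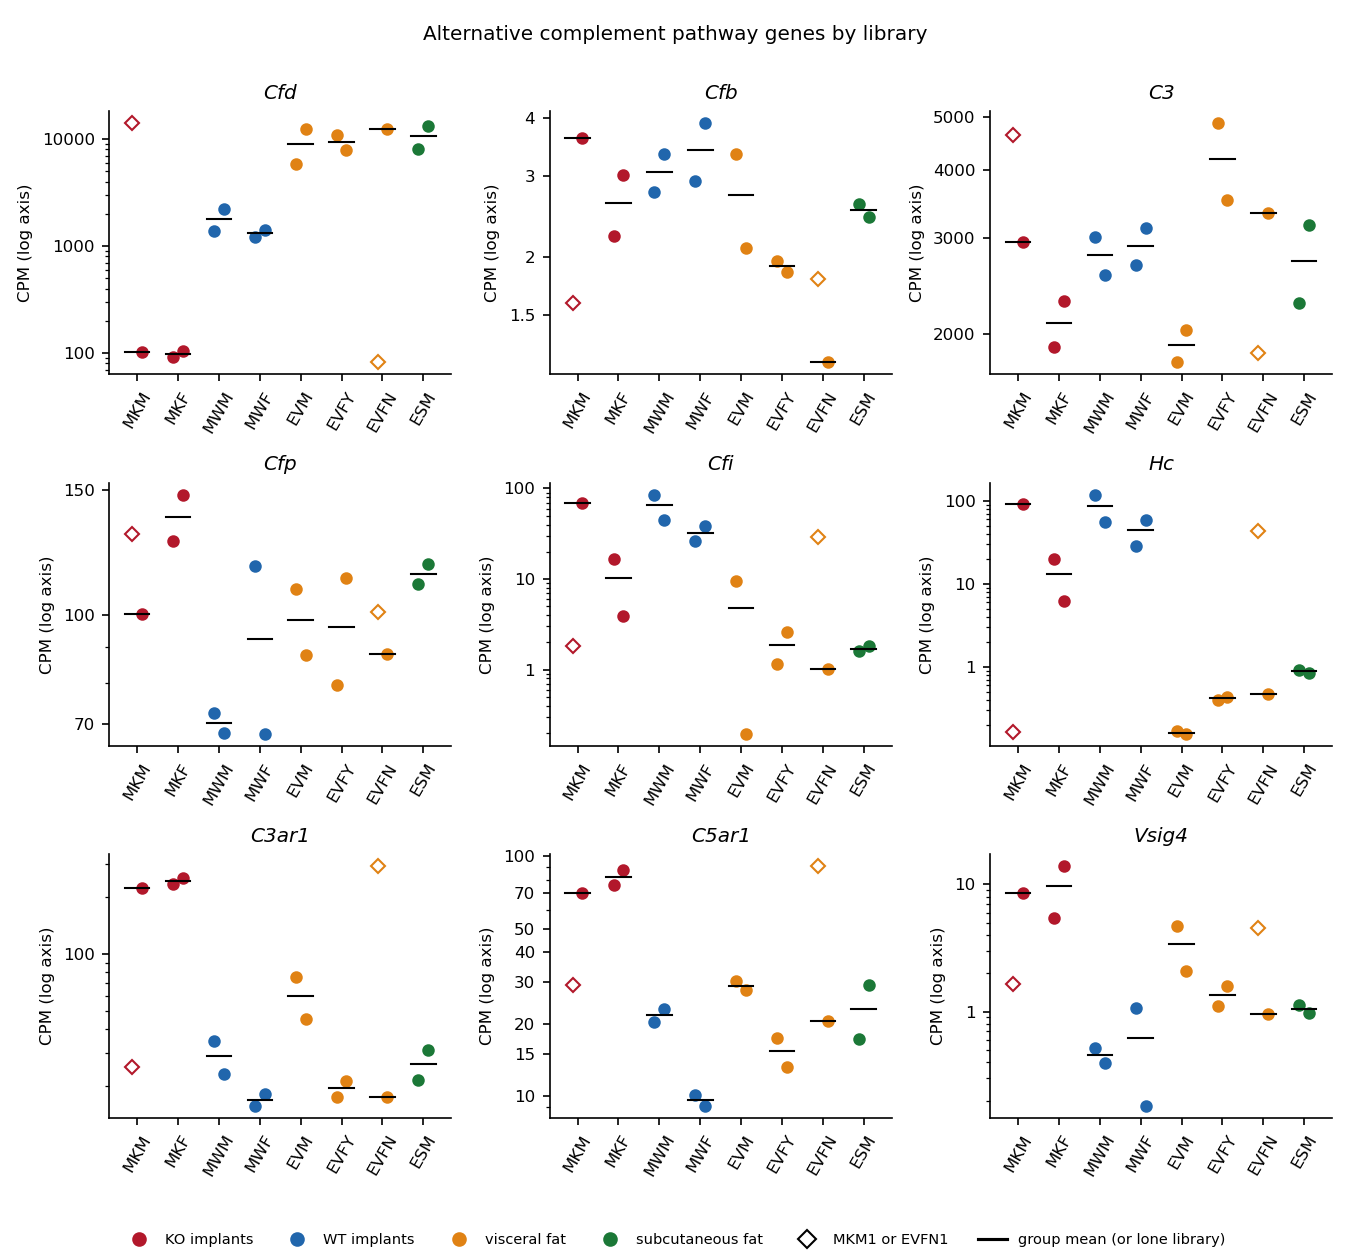
Level of each gene in CPM on a log axis for the 16 libraries, by group code, with KO implants at the left, then WT implants, visceral fat and subcutaneous fat. Points are libraries, bars are group means or lone libraries, and open diamonds are the libraries labelled MKM1 and EVFN1; Cfd lies at 91.4 to 104 CPM in the KO implants and at 1223 to 2210 CPM in the WT implants.

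Cfd encodes factor D, the serine protease that cuts factor B and the rate-limiting enzyme of the pathway. The gene lies on chromosome 10 (mm10, GENCODE M21), chr10:79890853-79892655 on the plus strand, with 922 exonic bases. It had 102, 91.4 and 104 CPM in the KO implants MKM2, MKF1 and MKF2, against 1391, 2210, 1223 and 1416 CPM in the WT implants MWM1, MWM2, MWF1 and MWF2. Visceral fat had 5788 and 12351 CPM in EVM1 and EVM2, 10903 and 7976 CPM in EVFY1 and EVFY2, and 12313 CPM in EVFN2, and subcutaneous fat had 8046 and 13269 CPM in ESM1 and ESM2. The 3 tissues formed 3 bands: every KO library lay below every WT library, and every WT library below every library of endogenous fat other than the one labelled EVFN1, with visceral and subcutaneous fat overlapping. The library labelled MKM1 had 14068 CPM, in the range of fat, and the library labelled EVFN1 had 81.8 CPM, below every KO implant.

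The mean of Cfd was 99.1 ± 6.7 CPM in KO implants (SD, n = 3) and 1560 ± 442 CPM in WT implants (SD, n = 4), a 15.2-fold lower level (log2 fold change -3.92, SE 0.32, limma adjusted p = 0.000341). It fell in the female groups by 3.75 on the log2 scale (SE 0.40, limma adjusted p = 0.0012) and in the male groups by 4.09 (SE 0.49, limma adjusted p = 0.0206). The male and female effects differed by -0.34 (95% interval -1.78 to 1.10), which does not show that they were alike. Without MWM2 the male call was lost (-3.76, limma adjusted p = 0.13; 10 of 11 alternatives without the libraries labelled MKM1 and EVFN1 kept it, with adjusted p from 3.38e-13 to 0.13). With those 2 libraries counted as labelled, the difference over both sexes was -2.15 (limma adjusted p = 0.452).

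Against visceral fat, Cfd was 98.8-fold lower in KO implants (log2 fold change -6.63, SE 0.31, limma adjusted p = 2.51e-05) and 6.52-fold lower in WT implants (-2.70, SE 0.28, limma adjusted p = 0.00065). Against subcutaneous fat it was 103-fold lower in KO implants (-6.69, SE 0.38) and 6.8-fold lower in WT implants (-2.77, SE 0.35). Between the depots it did not pass the threshold, at -0.06 for visceral against subcutaneous fat (95% interval -0.83 to 0.71, limma adjusted p = 0.975). In bulk tissue, fewer cells of a type and less RNA per cell cannot be told apart.

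Most of the 8 listed adipocyte genes did not follow Cfd in size. Of the 8, 2 fell in KO against WT implants, where 4.1% of all genes fell, and 0 rose, where 6.67% rose. One of them, Adipoq, which encodes adiponectin, had 719 to 810 CPM in KO implants and 876 to 2175 CPM in WT implants (log2 fold change -0.93, SE 0.23, limma adjusted p = 0.0351). The other, Retn (resistin), had 28.5 to 34.2 CPM in KO implants and 98.4 to 237 CPM in WT implants (-2.14, SE 0.41, limma adjusted p = 0.0143). The mean over the list was 1472 to 1800 CPM in KO implants, 986 to 2175 CPM in WT implants, 2049 to 3040 CPM in visceral fat and 1712 to 2717 CPM in subcutaneous fat.

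Relative to the mean log2 level of the 8 adipocyte genes in its own library, Cfd stood at -3.07 to -2.67 in KO implants, at 0.43 to 1.09 in WT implants, at 2.22 to 2.81 in visceral fat and at 2.34 and 3.63 in subcutaneous fat. The same 3 bands were thus present after this within-library scaling. The library labelled MKM1 stood at 3.38 and the library labelled EVFN1 at -2.93. Relative to Adipoq alone, Cfd was -3.14 to -2.79 in KO implants and -0.23 to 0.48 in WT implants.

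The genes whose log2 levels followed Cfd most closely over the 14 libraries, among 11679 genes with a mean of at least 5 CPM, were Car3 (Pearson r = 0.970), Retn (0.968), Adrb3 (0.965) and Apcdd1 (0.959). Car3 encodes a carbonic anhydrase abundant in adipocytes and muscle, and Adrb3 the beta3-adrenergic receptor of adipocytes. Adrb3, which is not on the adipocyte list, had 6.52, 8.99 and 7.08 CPM in MKM2, MKF1 and MKF2. In MWM1, MWM2, MWF1 and MWF2 it had 94.2, 87.5, 93.2 and 171 CPM, so a fall of this kind was not particular to Cfd. The points share tissue and library, so these values only describe the shared pattern.

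**Figure D2:**
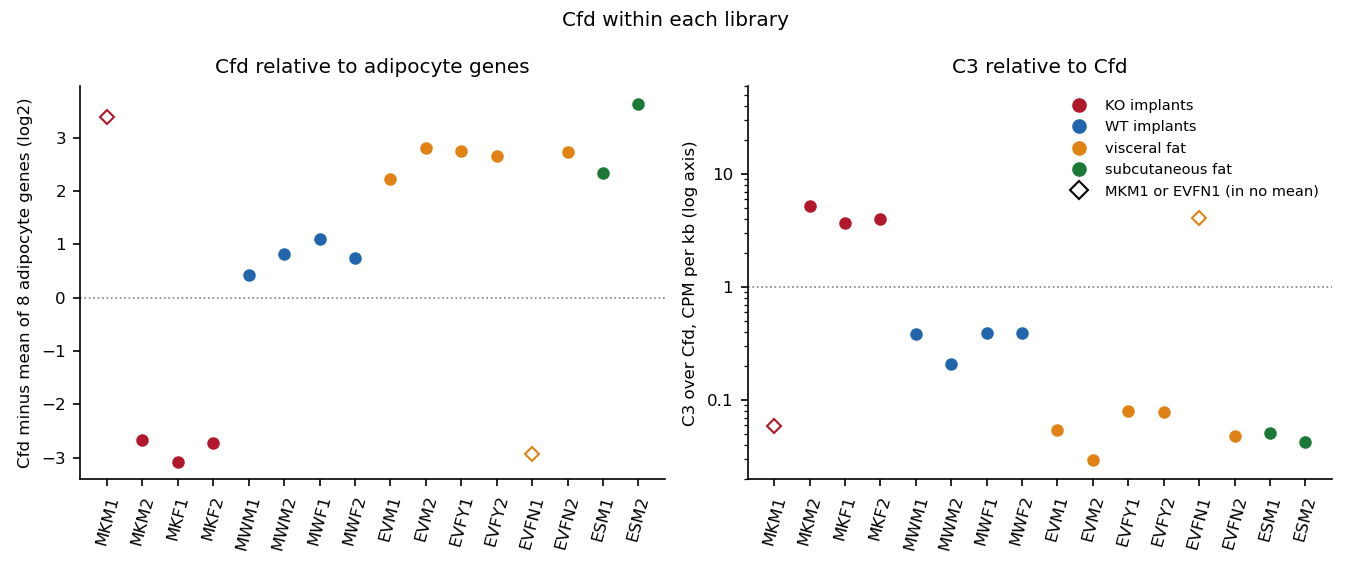
Left, Cfd minus the mean log2 level of 8 adipocyte genes in each library; right, C3 over Cfd in CPM per kb on a log axis, with libraries in the order KO implants, WT implants, visceral fat and subcutaneous fat. The 3 KO implants lie at -3.07 to -2.67 on the left and at 3.72 to 5.18 on the right, apart from all other libraries except the one labelled EVFN1.

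C3 encodes the central protein of all complement branches and is the source of C3a and C3b. The gene is on chromosome 17, chr17:57203970-57228136 on the minus strand, with 5143 exonic bases. It had 2955, 1898 and 2302 CPM in the KO implants MKM2, MKF1 and MKF2, against 3010, 2569, 2683 and 3133 CPM in the WT implants MWM1, MWM2, MWF1 and MWF2. In visceral fat it had 1775 and 2039 CPM in EVM1 and EVM2, 4881 and 3522 CPM in EVFY1 and EVFY2 and 3335 CPM in EVFN2, and in subcutaneous fat 2285 and 3167 CPM. All 4 tissues overlapped, and the EVM libraries lay at the low end of visceral fat. The KO implants differed from the WT implants by -0.19 (SE 0.20, 95% interval -0.64 to 0.25, limma adjusted p = 0.561; -0.44 without MKM2 and -0.12 without MKF1) and from visceral fat by -0.26 (95% interval -0.69 to 0.18), and WT implants differed from visceral fat by -0.07 (95% interval -0.45 to 0.32). None of these shows that the levels were equal.

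Per kb of exon, C3 averaged 464 CPM per kb in KO implants and Cfd 107 CPM per kb, whereas in WT implants C3 averaged 554 and Cfd 1692 CPM per kb. The order of the 2 genes was therefore reversed: within a library, the ratio of C3 to Cfd per kb was 3.72 to 5.18 in KO implants, 0.208 to 0.397 in WT implants and 0.0296 to 0.0803 in endogenous fat. It was 0.0592 in the library labelled MKM1 and 4.05 in the library labelled EVFN1. The genes most like C3 over the 14 libraries were Sirt4 (r = 0.873), Fam19a5 (0.866) and Nmnat1 (0.835).

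The windows around the transcript starts of Cfd and C3 are shown because these genes, both expressed by adipocytes, parted between the implants. Each runs from 250 bases before to 50 bases after the start and is printed 5′ to 3′ on the strand of the gene, from the RefSeq annotation of GRCm38.p6 (mm10). Capitals mark 2 motifs searched on both strands: TTNNGNAA, a form of the C/EBP site, and GAGGAA, the core of the PU.1 site. C/EBP proteins drive adipocyte and hepatocyte genes, and PU.1 drives myeloid genes. Cfd is chr10:79890603-79890902, plus strand, and C3 is chr17:57228087-57228386, minus strand.
Cfd: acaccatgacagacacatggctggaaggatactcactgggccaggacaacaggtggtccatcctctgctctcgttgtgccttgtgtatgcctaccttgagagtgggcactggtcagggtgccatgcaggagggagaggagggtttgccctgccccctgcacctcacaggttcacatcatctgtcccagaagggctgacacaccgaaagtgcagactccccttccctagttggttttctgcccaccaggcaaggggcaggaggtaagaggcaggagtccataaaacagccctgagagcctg
C3: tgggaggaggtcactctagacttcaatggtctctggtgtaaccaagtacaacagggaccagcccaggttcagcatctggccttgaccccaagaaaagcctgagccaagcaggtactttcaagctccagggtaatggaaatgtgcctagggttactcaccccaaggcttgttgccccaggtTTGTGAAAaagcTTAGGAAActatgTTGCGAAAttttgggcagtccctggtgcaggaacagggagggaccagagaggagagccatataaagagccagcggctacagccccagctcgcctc
The Cfd window held 0 matches to either motif, and the C3 window held 3 matches to TTNNGNAA and 0 to GAGGAA; no 2 matches overlapped. Of 32817 mouse windows of the same length, 40.7% held TTNNGNAA and 28.3% held GAGGAA, so single matches are common, and binding was not measured.

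Cfb encodes factor B, the proenzyme that factor D cuts. The gene is on chromosome 17, chr17:34856374-34862518 on the minus strand. Its level rests on few reads, 20 to 71 per library. Of its 2825 exonic bases, 2246 (79.5%) are shared with the annotated readthrough gene Gm20547, and how reads on shared bases were counted is not given in the sources used here. Gm20547 had 1 read in ESM1 and 0 reads in every other library, so shared reads were not counted for both genes. Whether they were counted for Cfb or left out was not tested. If they were left out, the CPM of Cfb understate its level. It had 3.61, 2.22 and 3.00 CPM in the KO implants MKM2, MKF1 and MKF2, against 2.77, 3.33, 2.92 and 3.89 CPM in the WT implants MWM1, MWM2, MWF1 and MWF2. Visceral fat had 1.19 to 3.35 CPM with a median of 1.96 CPM, and subcutaneous fat had 2.61 and 2.45 CPM. KO and WT implants overlapped and differed by -0.06 (SE 0.22, limma adjusted p = 0.893).

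WT implants were higher than visceral fat in Cfb by 0.66 on the log2 scale (SE 0.19, limma adjusted p = 0.0385), although EVM1 with 3.35 CPM lay among the WT implants. This call held in 6 of 17 alternatives, with adjusted p from 0.0238 to 0.164; it was lost without MWM1, MWM2, MWF1, MWF2, EVM2, EVFY1, EVFY2 or EVFN2, with the replicate block (0.67, limma adjusted p = 0.0544), with no filter on low genes and with only the compared groups fitted. With the libraries labelled MKM1 and EVFN1 counted as labelled it was 0.59 (limma adjusted p = 0.121). The genes most like Cfb were Polk (r = 0.855), Bhlhe40 (0.852) and Tspan11 (0.849).

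Cfp encodes properdin, the only known positive regulator of the pathway, made by leukocytes. It lies on chromosome X, chrX:20925454-20931555 on the minus strand. It had 100.3, 127 and 148 CPM in the KO implants MKM2, MKF1 and MKF2, against 72.5, 68.0, 117 and 67.7 CPM in the WT implants MWM1, MWM2, MWF1 and MWF2. The KO implants lay above 3 of the 4 WT libraries, and MWF1 lay between the KO libraries. Visceral fat had 79.4 to 113 CPM with a median of 87.8 CPM, and subcutaneous fat had 111 and 118 CPM. KO exceeded WT implants by 0.57 (SE 0.21, limma adjusted p = 0.113); without MWF1 the value was 0.76 (limma adjusted p = 0.0364), and over 16 alternatives the adjusted p ran from 0.0364 to 0.263.

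Relative to 10 macrophage genes in its own library, Cfp stood at -0.68 to -0.43 on the log2 scale in KO implants and at 0.28 to 1.17 in WT implants, with no overlap. Its level thus differed less between the implants than that of the macrophage genes. The genes most like Cfp were Adcy9 (r = 0.826), Siglec1 (0.821) and Sptlc2 (0.801). Siglec1 encodes a sialic acid receptor of macrophages.

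Cfi encodes factor I, the serine protease that inactivates C3b together with cofactors such as factor H. The gene is on chromosome 3, chr3:129835884-129875332 on the plus strand. It had 68.3, 16.7 and 3.91 CPM in the KO implants MKM2, MKF1 and MKF2, against 85.2, 45.3, 26.5 and 38.1 CPM in the WT implants MWM1, MWM2, MWF1 and MWF2. Visceral fat had 9.49 and 0.19 CPM in EVM1 and EVM2, 1.16 and 2.58 CPM in EVFY1 and EVFY2 and 1.01 CPM in EVFN2, and subcutaneous fat had 1.59 and 1.82 CPM. All WT implants lay above all endogenous fat; the KO library MKF2 lay below EVM1. The library labelled EVFN1 had 28.8 CPM and the library labelled MKM1 had 1.82 CPM.

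Cfi was higher than in visceral fat in KO implants by 3.56 (SE 0.84, limma adjusted p = 0.0162) and in WT implants by 4.44 (SE 0.75, limma adjusted p = 0.00504). The KO call was lost without MKM2 (2.07, limma adjusted p = 0.155) or MKF1 (3.07, limma adjusted p = 0.0532) and with only the compared groups fitted (0.0697), and it held in 14 of 17 alternatives, with adjusted p from 0.00103 to 0.155. Against subcutaneous fat Cfi was higher in KO implants by 3.47 (SE 1.02, limma adjusted p = 0.0462) and in WT implants by 4.35 (SE 0.94, limma adjusted p = 0.0229). Those calls held in 7 of 14 alternatives for KO implants (adjusted p from 0.00986 to 0.271) and in 10 of 15 for WT implants (0.000795 to 0.135), and were lost with edgeR and without either ESM library; the KO call was also lost without MKM2 or MKF1, with a pseudocount of 0.1 and with no filter on low genes, and the WT call without MWM1 or MWF2. KO and WT implants differed by -0.88 (SE 0.86, 95% interval -2.84 to 1.08, limma adjusted p = 0.545), which is within the spread of the KO libraries. That difference rested on single KO libraries: it was -2.37 without MKM2 (limma adjusted p = 0.135), -1.37 without MKF1 and -0.39 without MKF2, and 0 of 16 alternatives called it.

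Hc encodes complement C5, the source of C5a and of the first part of the membrane attack complex. Its position is chromosome 2, chr2:34983331-35061438 on the minus strand. It had 92.3, 19.8 and 6.27 CPM in the KO implants MKM2, MKF1 and MKF2, against 119, 56.0, 28.8 and 59.7 CPM in the WT implants MWM1, MWM2, MWF1 and MWF2. Visceral fat had 0.155 to 0.475 CPM, from 3 to 8 reads per library, and subcutaneous fat had 0.91 and 0.85 CPM, from 16 and 15 reads. Every implant lay above every library of endogenous fat, apart from those 2 labelled MKM1 and EVFN1. The library labelled EVFN1 had 44.0 CPM and the library labelled MKM1 had 0.165 CPM, from 3 reads.

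Hc reached the filter only through implants, so its rise against fat was largely set by the filter. Its values against fat are therefore given as a description. Hc was higher than in visceral fat in KO implants by 5.29 (SE 0.42) and in WT implants by 6.13 (SE 0.38). Against subcutaneous fat it was higher in KO implants by 4.58 (SE 0.51) and in WT implants by 5.41 (SE 0.47). Without MKM2 the KO values were 3.801 against visceral fat and 3.08 against subcutaneous fat. The added 0.5 CPM makes these values understate the true fold where fat is below 1 CPM. KO and WT implants differed by -0.83 (SE 0.43, limma adjusted p = 0.247); without MKM2 the difference was -2.33 (limma adjusted p = 0.0163, with 0.0163 to 0.546 over 16 alternatives). In the female groups it was -1.84 (SE 0.55, limma adjusted p = 0.0506, with 0.019 to 0.29 over 13 alternatives), and DESeq2 and the fit without MKF1 called it; it was -2.63 without MKF1 and -1.05 without MKF2.

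Liver genes moved with Cfi and Hc. All 8 liver genes, among them Alb (albumin) and Apoa1 (apolipoprotein A-I), were higher in KO and in WT implants than in either fat depot; 5 of them, like Hc, reached the filter only through implants so that the filter largely set their rise. Their mean was 1031, 179 and 5.48 CPM in MKM2, MKF1 and MKF2, 299 to 1404 CPM in WT implants, 1.19 to 8.03 CPM in visceral fat and 3.32 and 3.46 CPM in subcutaneous fat. The order of MKM2, MKF1 and MKF2 was the same for the liver mean, Cfi and Hc, and MWM1 was the highest and MWF1 the lowest WT implant in all 3. Between KO and WT implants 0 of the 8 liver genes were called, where 6.67% of all genes rose and 4.1% fell. Their median log2 fold change was -1.94 over both sexes, -3.65 in the female groups and -0.19 in the male groups. In the female groups 0 were called, where 6.01% rose and 10.4% fell, but all 8 had an unadjusted p under 0.05 with limma. In the library labelled EVFN1 the liver mean was 413 CPM and in the library labelled MKM1 it was 3.55 CPM. In EVM1, Cfi stood at 9.49 CPM with a liver mean of 1.19 CPM, and in MKF2, Hc stood at 6.27 CPM with a liver mean of 5.48 CPM. The part of liver transcripts in these differences was not tested. The genes most like Cfi were Itih2 (r = 0.983), Proz (0.976) and Igfbp1 (0.974), and those most like Hc were Apob (0.987), Apoc4 (0.986) and Gc (0.986), most of them genes of proteins that the liver secretes.

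**Figure D3:**
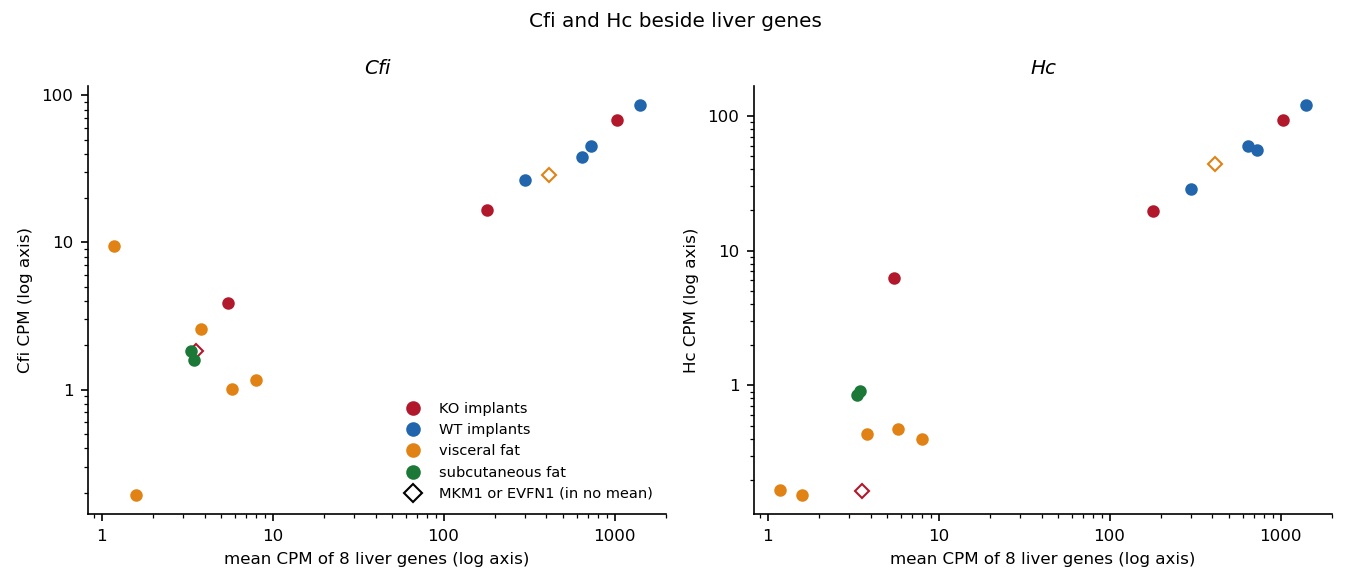
Cfi and Hc in CPM against the mean CPM of 8 liver genes, both axes log, 1 point per library, with KO implants in red, WT implants in blue, visceral fat in orange, subcutaneous fat in green and the libraries labelled MKM1 and EVFN1 as open diamonds. Most implants lie at the upper right and endogenous fat at the lower left, with the KO library MKF2 (liver mean 5.48 CPM) between them for Hc.

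C3ar1 encodes the receptor for C3a, a G protein-coupled receptor of macrophages and other myeloid cells. The gene is on chromosome 6, chr6:122847138-122856161 on the minus strand. It had 225, 236 and 254 CPM in the KO implants MKM2, MKF1 and MKF2, against 34.8, 23.1, 15.7 and 18.1 CPM in the WT implants MWM1, MWM2, MWF1 and MWF2. Visceral fat had 75.4 and 45.2 CPM in EVM1 and EVM2, 17.5 and 21.4 CPM in EVFY1 and EVFY2 and 17.6 CPM in EVFN2, and subcutaneous fat had 21.6 and 30.9 CPM. Every KO implant lay above every WT implant and every library of fat except the library labelled EVFN1, which had 292 CPM. The library labelled MKM1 had 25.1 CPM.

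C3ar1 was 10.5-fold higher in KO than in WT implants (log2 fold change 3.39, SE 0.22, limma adjusted p = 0.000337). The increase was 3.82 in the female groups (SE 0.28, limma adjusted p = 0.000564) and 2.97 in the male groups (SE 0.35, limma adjusted p = 0.0206, lost without MWM2 at 0.129). It was higher in KO implants than in visceral fat by 3.09 (SE 0.22, limma adjusted p = 9.43e-05) and than in subcutaneous fat by 3.16 (SE 0.27, limma adjusted p = 0.000284). WT implants differed from visceral fat by -0.30 (95% interval -0.75 to 0.14). With the libraries labelled MKM1 and EVFN1 counted as labelled, KO exceeded WT implants by 2.61 (limma adjusted p = 0.107).

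C5ar1 encodes the receptor for C5a, which draws and activates neutrophils and macrophages. Its position is chromosome 7, chr7:16246743-16259540 on the minus strand. It had 70.7, 75.9 and 88.1 CPM in the KO implants MKM2, MKF1 and MKF2, against 20.4, 23.0, 10.1 and 9.12 CPM in the WT implants MWM1, MWM2, MWF1 and MWF2. Visceral fat had 13.3 to 30.1 CPM with a median of 20.6 CPM, and subcutaneous fat had 17.4 and 29.0 CPM. The KO implants again lay above all WT implants and fat apart from the library labelled EVFN1, at 90.8 CPM, and the MWM libraries lay above the MWF libraries. The library labelled MKM1 had 29.2 CPM.

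C5ar1 was 5.12-fold higher in KO than in WT implants (log2 fold change 2.36, SE 0.19, limma adjusted p = 0.000337). The increase was 3.03 in the female groups (SE 0.24, limma adjusted p = 0.000564) and 1.68 in the male groups (SE 0.29, limma adjusted p = 0.035). The male call held in 6 of 11 alternatives (adjusted p from 0.00125 to 0.195) and was lost without MWM1, without MWM2, with median-of-ratios scaling, with edgeR and with the replicate block (limma adjusted p = 0.0555). The male effect was smaller than the female one by 1.34, coded male minus female as -1.34 (SE 0.37, unadjusted p = 0.00585 in the limma fit, limma adjusted p = 0.142), and this passed the threshold with DESeq2 alone (-1.64, DESeq2 adjusted p = 0.0273; 0.0273 to 0.383 over 15 alternatives). C5ar1 was higher in KO implants than in visceral fat by 1.84 (SE 0.18, limma adjusted p = 0.000295) and than in subcutaneous fat by 1.74 (SE 0.22, limma adjusted p = 0.00139). WT implants differed from visceral fat by -0.51 (SE 0.16, limma adjusted p = 0.0507), and 6 of 18 alternatives called this decrease.

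Vsig4 encodes the complement receptor of the immunoglobulin family, which binds C3b and iC3b on resident macrophages and restrains the alternative pathway. Its locus on chromosome X is chrX:96247203-96293438 on the minus strand. It had 8.60, 5.46 and 13.9 CPM in the KO implants MKM2, MKF1 and MKF2, against 0.52, 0.40, 1.06 and 0.18 CPM in the WT implants MWM1, MWM2, MWF1 and MWF2. The reads behind the WT values were 11, 7, 20 and 3. Visceral fat had 4.74 and 2.09 CPM in EVM1 and EVM2, 1.11 and 1.59 CPM in EVFY1 and EVFY2 and 0.95 CPM in EVFN2, and subcutaneous fat had 1.13 and 0.97 CPM. The KO implants lay above all WT implants and all endogenous fat. The library labelled EVFN1 had 4.58 CPM and the library labelled MKM1 had 1.65 CPM.

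Vsig4 was higher in KO than in WT implants by 3.21 (SE 0.42, limma adjusted p = 0.00248). The WT values lie near the added 0.5 CPM, so the size depended on the method, although all 16 alternatives called it: it was 2.09 with 2 CPM added, 3.96 with 0.1 CPM added, 4.05 with edgeR and 4.07 with DESeq2. In the female groups the increase was 3.16 (SE 0.54, limma adjusted p = 0.00635), and it missed the threshold without MKF2 (limma adjusted p = 0.054). In the male groups the difference was 3.25 (SE 0.66, limma adjusted p = 0.053), which DESeq2 and the fit with no filter on low genes called; over 10 alternatives the adjusted p ran from 0.00142 to 0.288. It was higher in KO implants than in visceral fat by 2.10 (SE 0.41, limma adjusted p = 0.00726) and than in subcutaneous fat by 2.57 (SE 0.50, limma adjusted p = 0.00974; 0.0586 without ESM2). WT implants differed from visceral fat by -1.11 (SE 0.37, limma adjusted p = 0.0603), and 6 of 18 alternatives called this decrease.

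**Figure D4:**
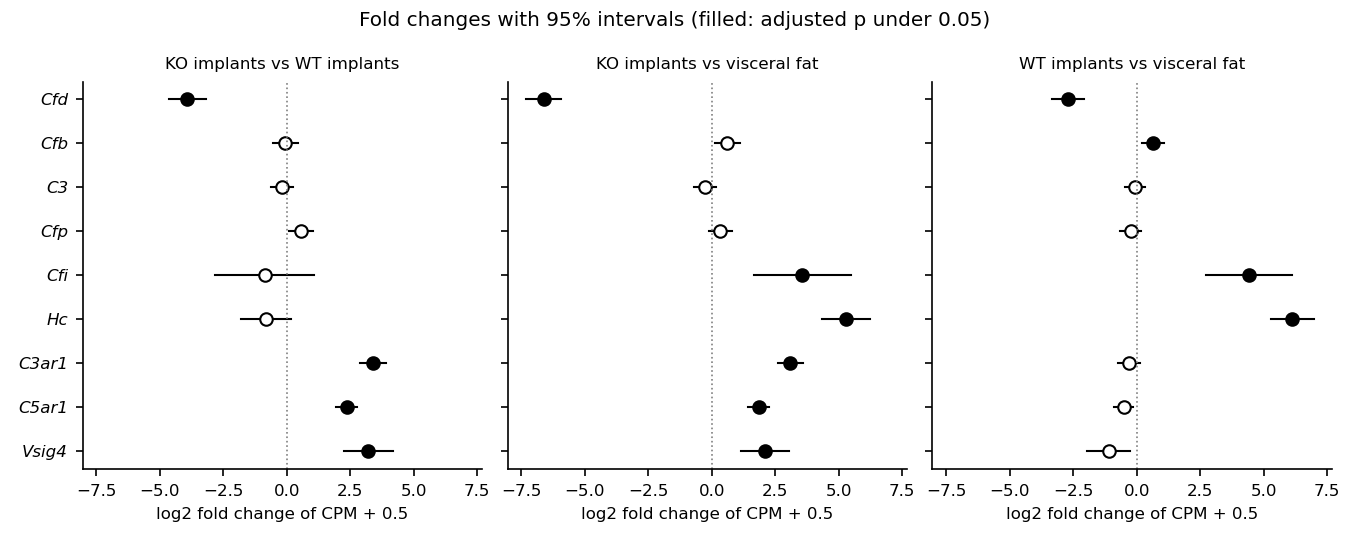
Log2 fold changes of the 9 genes in KO against WT implants, KO implants against visceral fat and WT implants against visceral fat, with 95% intervals from the limma fit; filled points have an adjusted p under 0.05. Cfd lies left of 0 in all 3 panels (-3.92, -6.63 and -2.70), Cfi and Hc lie right of 0 in the 2 comparisons with visceral fat, and the 3 receptors lie right of 0 in the 2 comparisons of KO implants.

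Macrophage genes moved with the receptors. Of the 10 macrophage genes, 9 rose in KO against WT implants, where 6.67% of all genes rose, and 0 fell, where 4.1% fell. The list includes Csf1r, the receptor for colony-stimulating factor 1, and Adgre1, the F4/80 antigen. The mean over the list was 387 to 491 CPM in KO implants, 118 to 147 CPM in WT implants, 114 to 212 CPM in visceral fat and 111 and 143 CPM in subcutaneous fat. It was 480 CPM in the library labelled EVFN1 and 165 CPM in the library labelled MKM1. In KO implants 8 of the list rose and 1 fell against visceral fat, where 16.4% and 8.25% of genes did. Against subcutaneous fat 5 rose and 1 fell, where 13.4% and 4.9% did. Cd163 went against the list, with 44.8, 32.5 and 74.2 CPM in MKM2, MKF1 and MKF2. It had 69.0 to 179 CPM in visceral fat, 147 and 150 CPM in subcutaneous fat and 21.9 to 51.7 CPM in WT implants. Neutrophils also carry C5ar1. Of 6 neutrophil genes 1 rose and 0 fell, with a median log2 fold change of -0.49. The riser was Csf3r, the receptor for granulocyte colony-stimulating factor, at 17.2 to 19.9 CPM in KO implants and 7.38 to 11.8 CPM in WT implants (1.02, SE 0.23, limma adjusted p = 0.0250). S100a8 had 0.58, and S100a9, Retnlg, Mpo and Elane had -0.64, -0.34, -0.71 and -0.72, all short of the threshold. Retnlg, Mpo and Elane had 0.46 to 0.82, 0.15 to 0.34 and 0.19 to 0.21 CPM in KO implants, near or below the added 0.5 CPM. S100a9 and Mpo reached the filter only through implants. Few reads thus limit these values and the median of the list.

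Scaled to the macrophage genes of their own library, the receptors behaved unequally. C3ar1 stood at 0.24 to 0.48 on the log2 scale in KO implants and at -1.69 to -0.68 in WT implants, so the groups did not overlap. C5ar1 stood at -1.28 to -1.17 in KO implants and at -2.30 to -1.26 in WT implants, where they overlapped through MWM2 alone. MWM2 stood at -1.262 and the lowest KO library, MKF2, at -1.280. MWM1, MWF1 and MWF2, at -1.43, -2.30 and -2.23, lay below every KO implant. Vsig4 stood at -4.85 to -3.90 in KO implants and at -6.05 to -5.06 in WT implants, with no overlap. Its WT values rest on 3 to 20 reads per library and lie near the added 0.5 CPM. Visceral fat stood at -5.39 to -4.20 for Vsig4 and overlapped the KO implants. The part of macrophage numbers in the receptor differences was not tested.

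**Figure D5:**
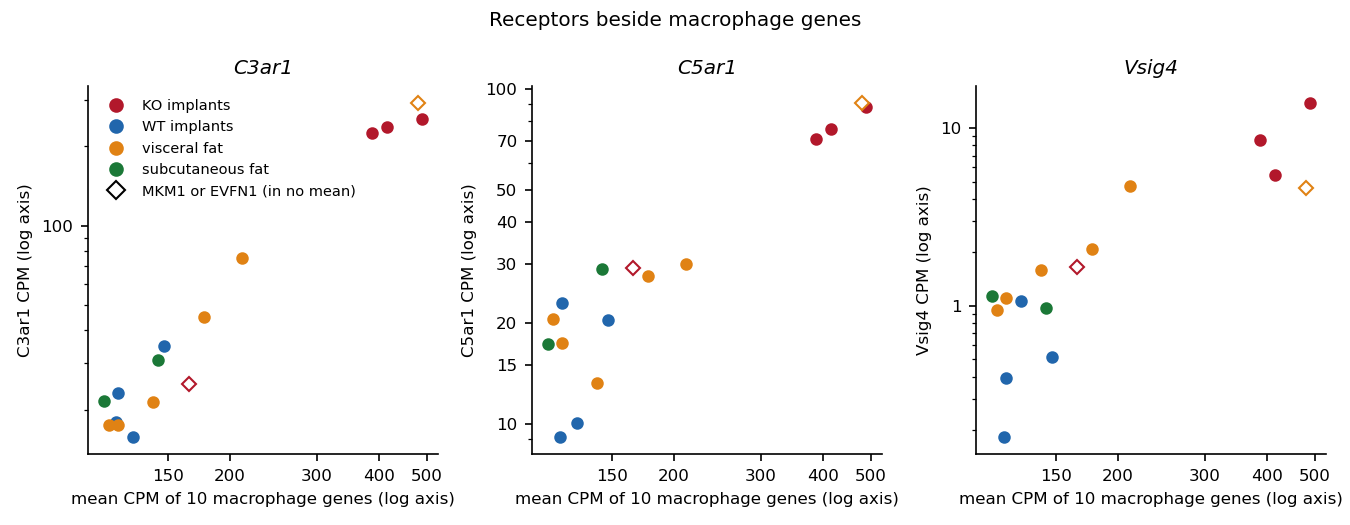
C3ar1, C5ar1 and Vsig4 in CPM against the mean CPM of 10 macrophage genes, both axes log, 1 point per library, with KO implants in red, WT implants in blue, visceral fat in orange, subcutaneous fat in green and the libraries labelled MKM1 and EVFN1 as open diamonds. The KO implants (387 to 491 CPM on the horizontal axis) form a separate cluster at the upper right, together with the library labelled EVFN1.

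The genes most like C3ar1 over the 14 libraries were Akr1b8 (r = 0.993), Msr1 (0.992) and Cln8 (0.990). For C5ar1 they were Igf2bp2 (0.969), Ctsb (0.963) and Rab7b (0.953), and for Vsig4 they were Csf1r (0.967), Rab11fip5 (0.962) and Ptafr (0.961). Msr1 encodes a macrophage scavenger receptor and Ctsb the lysosomal protease cathepsin B. The separation of KO implants from the other libraries weighs heavily in these values.

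The windows around the starts of the 3 receptor genes are shown because the genes were called together in KO against WT implants. The C3ar1 window is chr6:122856108-122856407, the C5ar1 window chr7:16259289-16259588 and the Vsig4 window chrX:96293389-96293688, all on the minus strand of GRCm38.p6, from RefSeq and printed 5′ to 3′, with capitals for the same 2 motifs.
C3ar1: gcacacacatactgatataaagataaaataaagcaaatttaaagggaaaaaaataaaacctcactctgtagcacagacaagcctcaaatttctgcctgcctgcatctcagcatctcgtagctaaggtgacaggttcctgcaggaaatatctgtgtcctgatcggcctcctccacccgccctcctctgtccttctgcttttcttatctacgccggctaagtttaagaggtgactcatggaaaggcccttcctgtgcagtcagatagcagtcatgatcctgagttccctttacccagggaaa
C5ar1: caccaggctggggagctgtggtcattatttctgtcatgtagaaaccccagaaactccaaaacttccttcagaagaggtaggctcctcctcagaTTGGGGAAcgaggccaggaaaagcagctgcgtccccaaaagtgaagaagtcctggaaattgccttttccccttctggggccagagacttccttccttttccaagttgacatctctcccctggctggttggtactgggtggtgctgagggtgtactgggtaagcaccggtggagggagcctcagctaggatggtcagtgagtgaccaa
Vsig4: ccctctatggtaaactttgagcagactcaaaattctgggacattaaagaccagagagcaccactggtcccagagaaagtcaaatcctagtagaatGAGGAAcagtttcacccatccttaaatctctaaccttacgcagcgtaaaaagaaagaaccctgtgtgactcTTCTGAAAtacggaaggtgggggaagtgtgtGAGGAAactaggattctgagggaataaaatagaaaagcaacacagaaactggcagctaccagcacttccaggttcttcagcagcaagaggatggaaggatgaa
TTNNGNAA matched 0 times in C3ar1, 1 time in C5ar1 and 1 time in Vsig4. GAGGAA matched 0 times in C3ar1, 0 times in C5ar1 and 2 times in Vsig4. RefSeq windows were matched for 7 of the 9 genes. Of the windows not printed, that of Cfp held 2 matches to GAGGAA and that of Hc 1 match to TTNNGNAA.

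Other genes of the pathway came from a list of 28 regulators, terminal components and receptors, of which 26 were tested. In KO against WT implants 4 rose, where 6.67% of all genes rose, and 2 fell, where 4.1% fell. The risers were Itgax (3.08, SE 0.29, limma adjusted p = 0.000548), Itgb2 (2.06, SE 0.26, limma adjusted p = 0.0019), Itgam (1.68, SE 0.22, limma adjusted p = 0.00217) and C5ar2 (1.52, SE 0.25, limma adjusted p = 0.00654). Itgam and Itgax encode the alpha chains and Itgb2 the shared beta chain of complement receptors 3 and 4, which bind iC3b on myeloid cells, and C5ar2 encodes the second C5a receptor. The fallers, named after their values were seen, were C8b, a chain of the membrane attack complex that reached 1 CPM in MKM2 alone among the KO implants, and Clu, encoding clusterin, a fluid-phase inhibitor of that complex (-1.39, SE 0.23, limma adjusted p = 0.00767). The median log2 fold change of the list was -0.46, against -0.06 over all genes.

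Of the 26, 8 reached the filter only through implants so that their rise against fat was largely set by the filter, among them Cpn1, Cpn2, C8a and C8b. In KO implants against visceral fat 14 of the 26 rose, where 16.4% of all genes rose, and 2 fell, where 8.25% fell; 7 of the risers were among those 8. Those with the smallest adjusted p were Itgax (4.49, SE 0.28), Itgb2 (2.84, SE 0.25), C5ar2 (1.89, SE 0.24) and Itgam (1.59, SE 0.21). In WT implants against visceral fat 15 rose, where 15.9% rose, and 1 fell, where 6.5% fell; all 8 were among the risers. The smallest adjusted p belonged to C8b, C8a, Cpn1 and Cpn2, all of this kind, so their values are given as a description. C8a and C8b encode chains of the membrane attack complex, and Cpn1 and Cpn2 the subunits of carboxypeptidase N, which inactivates C3a and C5a in plasma. C8a averaged 35.4 CPM in WT implants and 0.06 CPM in visceral fat (log2 fold change 5.68, SE 0.56), and Cpn1 averaged 28.2 CPM in WT implants and 0.296 CPM in visceral fat (5.28, SE 0.55). C8b averaged 5.72 CPM in WT implants and had 0 reads in every library of endogenous fat other than the library labelled EVFN1. All are known as liver genes, and the liver means given for Cfi and Hc apply to them too.

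Against subcutaneous fat 13 of the 26 rose in KO implants, where 13.4% of all genes rose, and 2 fell, where 4.9% fell; 7 of the risers were among the 8 genes above. In WT implants 13 rose, where 8.57% rose, and 1 fell, where 1.82% fell, and all 8 were among the risers. C7, a further part of the membrane attack complex, was the one that fell in WT implants (-3.18, SE 0.38, limma adjusted p = 0.00306), and it also fell in KO implants (-3.63, SE 0.41). It was the 1 gene of the list called between the depots, lower in visceral than in subcutaneous fat (-3.14, SE 0.37, limma adjusted p = 0.00475). C7 had 403 and 308 CPM in EVM1 and EVM2, but 7.09 and 13.0 CPM in EVFY1 and EVFY2 and 4.10 CPM in EVFN2, against 172 and 292 CPM in ESM1 and ESM2. The EVM libraries thus lay above both subcutaneous libraries, and the EVFY libraries and EVFN2 below both. EVM and ESM share both the surgery and the letter M, which cannot be told apart here. Among the implants, C7 had 28.3, 8.94 and 13.5 CPM in MKM2, MKF1 and MKF2, against 80.7 and 161 CPM in MWM1 and MWM2 and 6.32 and 3.71 CPM in MWF1 and MWF2. The cause of these differences in C7 was not tested.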

How the data were processed

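RNA of 16 libraries was sequenced after enzymatic removal of ribosomal RNA and random-hexamer priming, per the labels' protocols. The submitters' processing notes list STAR 2.5.4, featureCounts (Subread 1.6.3), cutadapt 2.7 and FastQC 0.11.4, and the mm10 build. For annotation release, strand setting and overlapping genes, nothing is stated in those notes. A sample coded ESF is not analysed here.

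The authors deposited CPM values, which summed to 1000000 in each library. Whole reads were recovered from 100% of nonzero values (tolerance 0.001 reads) and used for the edgeR and DESeq2 alternatives only. Positions and exon lengths are from GENCODE M21, and per-kb levels are CPM over merged exon length.

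One limma fit (3.58.1, R 4.3.3; trend, robust) on log2(CPM + 0.5) held all groups of 14 libraries, without those labelled MKM1 and EVFN1, for 17871 genes reaching 1 CPM in 2 or more libraries, with 6 residual degrees of freedom. Contrasts weighted groups equally, and a lone library was assumed to vary like the other groups. The limma, edgeR (4.0.16) and DESeq2 (1.42.0) steps were tested on simulated data. Within a group, the chi-square of the reads was 22.3 to 103 per degree of freedom in 6 groups and 184 and 214 in MKM and EVFN. The libraries of each group thus differed by more than counting noise, which does not show that they came from separate animals. Precision follows depth: 1 CPM is 16 to 26 reads. All 9 genes are named. Of the other pathway genes, up to 4 called per comparison with the smallest adjusted p are named, and by likeness of pattern 4 genes for Cfd and 3 for each other gene, leaving out predicted-gene symbols. The genes, lists and tests were chosen with earlier results of these data known. Alternatives were other pseudocounts (0.1, 2) and filters, median-of-ratios scaling, edgeR, DESeq2, the replicate number as a block, all 16 libraries as labelled, fits of the compared groups only and leaving out each library.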

Additional observations from a re-analysis of the deposited data

Results flagged for a closer look

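Among 18 sets of values (9 genes in the 4 WT implants and in the 5 visceral fat libraries), 2 held a library farther from the rest than Dixon's 95% limit; about 1 in 20 sets is flagged by chance. Cfp stood at 117 CPM in MWF1, against 67.7 to 72.5 CPM in the other WT implants. Cfi stood at 9.49 CPM in EVM1, against 0.194 to 2.58 CPM in the other visceral fat libraries.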

How the results depend on the processing

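Of 674 single-gene values under alternatives, for 42 results, 590 kept their direction and side of the threshold, 60 lost the call (25 of them with all 16 libraries as labelled), 20 gained it and 4 changed sign. Counting the libraries labelled MKM1 and EVFN1 as labelled lowered the number of called genes to 2 in KO against WT implants, 2 in the female groups, 0 in the male groups, 1 in WT implants against visceral fat, and 0 in WT implants against subcutaneous fat, KO implants against visceral fat and KO implants against subcutaneous fat, where the counts without them were 4, 4, 3, 4, 3, 6 and 6. That setting also turned the male minus female difference of Hc to -1.54. Leaving out 1 library at a time gave 0 to 2 called genes in the male groups and moved Cfb in KO against WT implants between -0.262 and 0.0356. DESeq2 called 1 gene in the male minus female test. Median-of-ratios scaling moved the all-gene median from -0.198 to -0.066 in the female groups, from 0.115 to -0.00436 in the male groups, from 0.255 to 0.00326 in male minus female, from 0.141 to 0.0286 in WT implants against subcutaneous fat and from 0.118 to 0.0115 in KO implants against subcutaneous fat. Same-numbered libraries deviated together in some groups and not in others: r was over 0.1 in 7 of 15 pairs of groups, among them all 6 pairs of ESM, EVM, MKF and MWM, and ran from -0.444 to 0.336. The numbers were therefore not used as pairs; with the replicate block Cfd in KO against WT implants was -4.02 (limma adjusted p = 0.00111), and the calls of C5ar1 in the male groups and of Cfb in WT implants against visceral fat were lost. The effects of left-out libraries on C3, Cfi, Hc, Cfp and Vsig4 stand beside their results, and the cause of these changes was not tested. Few reads limit Cfb, Hc in fat and Vsig4 in WT implants, and the male groups rest on 1 KO library. For Cfb, whether reads on shared bases were left out was not tested.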
